A study of Mus musculus with 2 samples.

Results

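The 8 genes described here, Insm1, Neurod1, Nkx2-2, Pax6, Rfx6, Myt1, St18 and Runx1t1, encode transcription regulators shared by pancreatic endocrine cells of several hormone types. They were taken by symbol from the deposited count tables of the series, where all 8 of 8 were found among 25507 genes in both libraries. Their levels, their order of rise and fall and their joint detection in single cells were followed across cells grouped by the UMIs of other genes. None of the 8 was used to form a group.

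As background, endocrine cells of the embryonic pancreas arise from a ductal trunk epithelium. There the basic helix-loop-helix (bHLH) factor Neurog3 is switched on for a short time and activates a set of further transcription factors. Insm1 and Myt1 encode zinc-finger proteins, Neurod1 a bHLH factor and known Neurog3 target, and Nkx2-2 and Pax6 homeodomain factors. Rfx6 encodes a winged-helix factor of the RFX family, St18 a zinc-finger factor of the Myt family and Runx1t1 a co-repressor of the ETO family. Loss of Insm1, Neurod1, Nkx2-2, Pax6 or Rfx6 in mice disturbs the formation or maturation of hormone cells. Cells that leave the Neurog3 stage gain granule proteins such as chromogranin B (Chgb) and then a hormone.

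The series held 2 libraries of wild type mouse embryonic pancreas (E14.5), in which single cells sorted for low and high fluorescence of an Ngn3eGFP reporter (Ngn3 is Neurog3) were encapsulated on the inDrop platform. Both libraries had the same genotype, tissue, age and sort and no treatment, so the comparisons were made between cell groups within them. The labels do not say whether the libraries came from separate embryos or litters, nor how many were pooled. The test sets library as a block, so p-values rest on how far group differences disagree between these 2 libraries, pooled over all compared groups. That disagreement may be technical. Because the reporter protein can outlast its transcript, the sort holds cells before, during and after Neurog3 expression and is not a sample of the whole pancreas.

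Unique molecular identifiers (UMIs), which count captured transcripts, summed to 1910588 in library 1 (535 barcodes) and 3425983 in library 2 (1100 barcodes). After filters, 515 and 1070 cells were used, with medians of 3225 and 2847.5 UMIs. The libraries shared 3 barcode names. Although the cells are labelled as islet, 11 and 91 cells carried acinar transcripts and 8 and 64 were macrophages. Both kinds were set apart, and the macrophages serve below as the level of stray RNA in cells of another lineage. That level is rough. In library 2, Gcg stood at 522 CPM in macrophages and at 38.8 CPM in acinar cells.

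The compared groups were named for what they held. Trunk cells had at least 3 UMIs of Spp1, a trunk and duct marker, with 0 Neurog3 UMIs (80 cells in library 1 and 156 in library 2) or with 1 to 2 (26 and 54, "low-Neurog3 trunk cells"). Cells with at least 3 UMIs of both Spp1 and Neurog3 are called Spp1+ Neurog3+ (31 and 65). Those with Neurog3 and fewer than 3 Spp1 UMIs are called Neurog3+ (82 and 114). Cells with at least 3 UMIs of both Neurog3 and Chgb, here called double-positive, were rare (10 and 16). Cells that had lost Neurog3 and kept Chgb are called Chgb+ (95 and 149). Gcg+ cells, with at least 5 UMIs of glucagon, numbered 29 and 53, and insulin+ cells, with at least 20 UMIs of Ins1 and Ins2, 40 and 99. The order of the groups is an ordering by markers, and no cell was followed over time.

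Marker lists of the cell types were summed in each group. Summed over 6 trunk markers, trunk cells stood at 4336 and 6549 CPM in libraries 1 and 2 (CPM, UMIs scaled to a common total in every library and group), against 301 and 417 CPM in Neurog3+ cells. Summed alpha markers reached 22565 and 28568 CPM in Gcg+ cells, and summed beta markers 41375 and 51539 CPM in insulin+ cells. These lists include the genes that formed the groups (Spp1, Gcg, Ins1 and Ins2). High sums therefore follow from the grouping and are no separate check of cell identity. Another hormone was present too. The delta list, with somatostatin, summed to 241 CPM in library 1 and 2924 CPM in library 2 in Chgb+ cells, and the epsilon and PP list to 9454 and 10188 CPM in Gcg+ cells. Of the Chgb+ cells, 4 of 95 (4.21%) and 15 of 149 (10.1%) had 5 or more UMIs of Ghrl, Ppy and Sst together. Without these cells all 26 of the 26 called differences below were kept. Only comparisons with Chgb+ cells could change directly, so the calls in the other comparisons say nothing about these cells.

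In the genome, 5 of the 8 genes lie on chromosome 2 (GRCm38, GENCODE M21). Insm1 spans chr2:146221921-146225020 (plus strand), Neurod1 chr2:79452521-79456751 (minus), Nkx2-2 chr2:147177546-147194243 (minus), Pax6 chr2:105668900-105697364 (plus) and Myt1 chr2:181763332-181827797 (plus). Rfx6 lies at chr10:51677756-51730432, St18 at chr1:6487231-6860940 and Runx1t1 at chr4:13743436-13893649, all on the plus strand. Exons of Neurod1 overlap Cerkl on the same strand and Gm26755 on the other, and exons of Nkx2-2 overlap Nkx2-2os on the other. Whether counting was stranded is not given in the sources used here, so the levels of Neurod1 and Nkx2-2 may hold reads of those neighbours.

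Neurog3 and Neurod1 bind E-boxes, 6-base sites of the form CANNTG. RefSeq promoter windows (GRCm38.p6) were matched for 5 of the 8 genes, Neurod1, Nkx2-2, Pax6, Rfx6 and Myt1, in 8 windows, and the 250 bases before each start were searched on both strands for CAGATG and for CATATG and CAGCTG. The matches are shown because these genes rise behind a bHLH factor. In the stretches below, read 5′ to 3′ on the minus strand, which carries both genes, capitals mark the E-box. Distances are from the RefSeq start, which for both genes lies inside the GENCODE span given above.
Neurod1 (chr2:79456857-79456886, E-box beginning 242 bases before the start): gggaagacCATATGgcgcatgccggggagg
Nkx2-2 (chr2:147186605-147186634, E-box beginning 220 bases before the start): cccacaatttcaCATCTGcaaatactgtct
CATCTG is CAGATG read on the other strand. Of 32851 promoter windows, 14.4% held CAGATG, 3.46% CATATG, 13.0% CAGCTG and 28.1% any of the 3, so a match in a window is common and is only a description of its letters. The windows of Pax6, Rfx6 and Myt1 held none of these letters.

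Insm1 was the only 1 of the 8 to pass the test in trunk cells that held a trace of Neurog3. It stood at 52.7 CPM in library 1 and 69.4 CPM in library 2 in trunk cells without Neurog3, and at 122 and 311 CPM in low-Neurog3 trunk cells. Both values of the second group lay above both of the first. The difference was 1.88 ± 0.33 on the log2 scale (SE, 2 libraries per group; edgeR quasi-likelihood test, Benjamini-Hochberg adjusted p = 0.00229). Insm1 was the only 1 of 8125 tested genes to pass in this comparison, so 1 of 8 members was called beside 0.0123% of all genes. Median depth was similar, 3790.5 against 3530 UMIs in library 1 and 2689 against 2591.5 in library 2.

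That first step was not secure. With library 1 alone the difference was 1.15 and with library 2 alone 2.12 on the log2 scale. The call was lost with lower marker thresholds (1.07, adjusted p = 0.987) and without library as a block (1.89, adjusted p = 0.0725). In the other 7 genes the difference did not pass, and no test compared the genes with each other. The values of Nkx2-2, Pax6, Rfx6 and St18 also did not overlap between the groups, with Nkx2-2 higher and the others lower. Lack of overlap thus does not set Insm1 apart. With library 1 alone Runx1t1 differed by 1.18, as much as Insm1, and with library 2 alone by -0.71. Nkx2-2, which already had 154 and 214 CPM in trunk cells without Neurog3, stood at 306 and 253 CPM with a trace of it (0.56 ± 0.27, adjusted p = 0.99). Pax6 had only 3 UMIs and Rfx6 2 UMIs in all low-Neurog3 trunk cells.

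Where Neurog3 reached 3 UMIs while Spp1 was still present, Insm1 and Nkx2-2 rose. Insm1 reached 852 and 1006 CPM in Spp1+ Neurog3+ cells, 2.04 ± 0.26 above low-Neurog3 trunk cells on the log2 scale (edgeR adjusted p = 2.32e-07). Nkx2-2, which represses genes of alternative islet fates, reached 602 and 848 CPM, a difference of 1.42 ± 0.25 (adjusted p = 3.92e-04). The libraries did not overlap between the groups for either gene. Nor did they for Neurod1 and Rfx6, which were higher, or St18, which was lower, and these did not pass. Insm1 and Nkx2-2, 2 of 8, were called beside 0.418% of all genes (0.357% higher and 0.0615% lower), and 34 of 8125 genes passed in all.

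The remaining 6 genes had few captured UMIs at that stage. Over both libraries Spp1+ Neurog3+ cells held 18 UMIs of Neurod1, 16 of Runx1t1, 14 of Rfx6, 11 of Myt1, 7 of Pax6 and 4 of St18, against 283 of Insm1 and 225 of Nkx2-2. With higher marker thresholds the call of Nkx2-2 was lost (0.89, adjusted p = 0.0628).

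**Figure D1:**
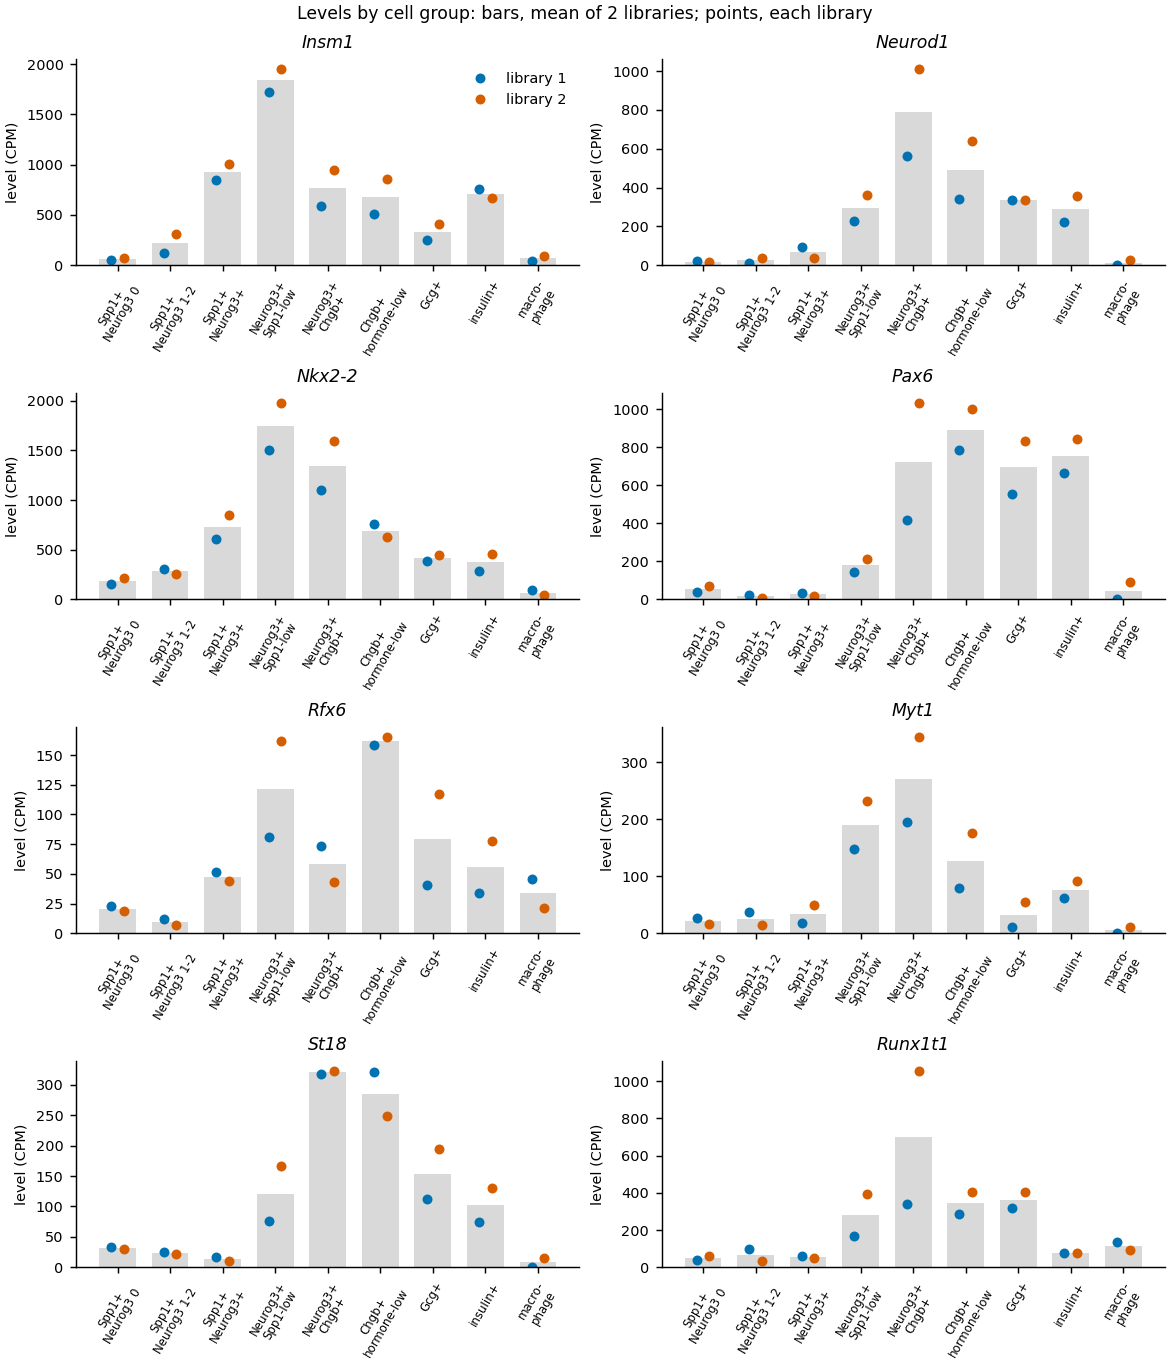
Level of each of the 8 genes (CPM, linear axis from 0, with a scale of its own per gene) in the 8 compared cell groups and in macrophages. Bars are the mean of 2 libraries and points each library. Insm1 and Nkx2-2 are highest in Neurog3+ cells, at 1838 and 1742 CPM, while Neurod1 and Runx1t1 are highest in double-positive cells, at 787 and 698 CPM.

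With the loss of Spp1, 7 of the 8 genes rose, beside 3.47% of all genes called between Neurog3+ and Spp1+ Neurog3+ cells (1.61% higher and 1.86% lower). The median of the 8 differences was 2.33 on the log2 scale, against 0.00 over all tested genes. No library value of Neurog3+ cells overlapped those of Spp1+ Neurog3+ cells in any of the 7. The same held for Rfx6, which was not called, and the share of all genes without overlap was not counted. Rfx6, which is needed for hormone cells other than PP cells, was the exception in the test. It went from 51.6 and 43.8 CPM to 80.8 and 162 CPM (1.38 ± 0.50, edgeR adjusted p = 0.135), and passed only with doublets kept (adjusted p = 0.0482).

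Insm1 and Nkx2-2 reached their highest levels in Neurog3+ cells. Insm1 stood at 1724 and 1952 CPM (mean ± SD, 1838 ± 161, n = 2), 0.99 ± 0.19 above Spp1+ Neurog3+ cells on the log2 scale (edgeR adjusted p = 3.57e-04). Nkx2-2 stood at 1506 and 1979 CPM (1742 ± 335, n = 2), a difference of 1.26 ± 0.19 (adjusted p = 4.90e-06). In both genes the 2 libraries gave nearly the same difference, 1.03 and 0.96 for Insm1 and 1.34 and 1.23 for Nkx2-2. When cells were thinned to 2000 UMIs the Insm1 difference was 0.50 (edgeR adjusted p = 0.313). For that fit the groups were formed anew from the thinned UMIs, and shallower cells were left out. Spp1+ Neurog3+ cells then numbered 20 and 35, so membership changed as well as depth.

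The other 5 of these genes rose from low levels. Pax6, which is needed for alpha cells and for hormone gene expression, went from 34.4 and 16.4 CPM to 143 and 212 CPM (2.92 ± 0.47, edgeR adjusted p = 1.07e-05). Neurod1 went from 94.6 and 38.3 to 228 and 363 CPM (2.28 ± 0.39, adjusted p = 4.49e-05), and Runx1t1 from 60.2 and 49.2 to 166 and 394 CPM (2.39 ± 0.42, adjusted p = 7.00e-05). In these 3 genes library 2 gave the larger difference, at 3.62 against 2.04 for Pax6, 3.22 against 1.28 for Neurod1 and 2.98 against 1.47 for Runx1t1.

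The related zinc-finger genes Myt1 and St18 rose at the same step. Myt1, which is known to act with Neurog3 in a positive loop, went from 17.2 and 49.2 CPM to 147 and 231 CPM (2.44 ± 0.50, edgeR adjusted p = 6.50e-04). St18 went from 17.2 and 10.9 CPM to 76.0 and 166 CPM (3.14 ± 0.63, adjusted p = 5.65e-04), on a base of 4 UMIs. With thinned cells the 2 differences were 1.71 (adjusted p = 0.19) and 2.60 (adjusted p = 0.0958).

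Cells were also split by the number of their Neurog3 UMIs. This was done in cells with fewer than 3 Chgb, 20 insulin and 5 Gcg UMIs, with no limit on other hormones. In library 1 Insm1 stood at 143, 553, 878, 1212, 1226 and 1820 CPM as Neurog3 went through 0, 1 to 2, 3 to 5, 6 to 10, 11 to 20 and 21 or more UMIs. Library 2 gave 261, 381, 1048, 1270, 1450 and 1649 CPM. Insm1 thus increased at every step in both libraries. Nkx2-2 increased up to 6 to 10 Neurog3 UMIs, to 1263 and 1416 CPM, and stood at 856 and 1357 CPM in the highest bin. Rfx6, at lower levels, went through 23.4, 33.9, 35.5, 59.3, 72.7 and 85.6 CPM in library 1, and in library 2 from 51.5 to 114 CPM with no steady order between. Myt1 had its highest value of library 1, 161 CPM, at 6 to 10 Neurog3 UMIs. Pax6 had its lowest or near its lowest values at the top, 64.2 and 63.4 CPM at 21 or more Neurog3 UMIs. Those top bins held 10 and 19 cells, the lowest bin includes endocrine cells without Chgb, and the bins carry no test. The bins use Neurog3 UMIs not scaled for depth, and cells in the top bins were deeper. Median depth was 2547 and 2436 UMIs at 3 to 5 Neurog3 UMIs and 4535 and 4201 UMIs at 21 or more.

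**Figure D2:**
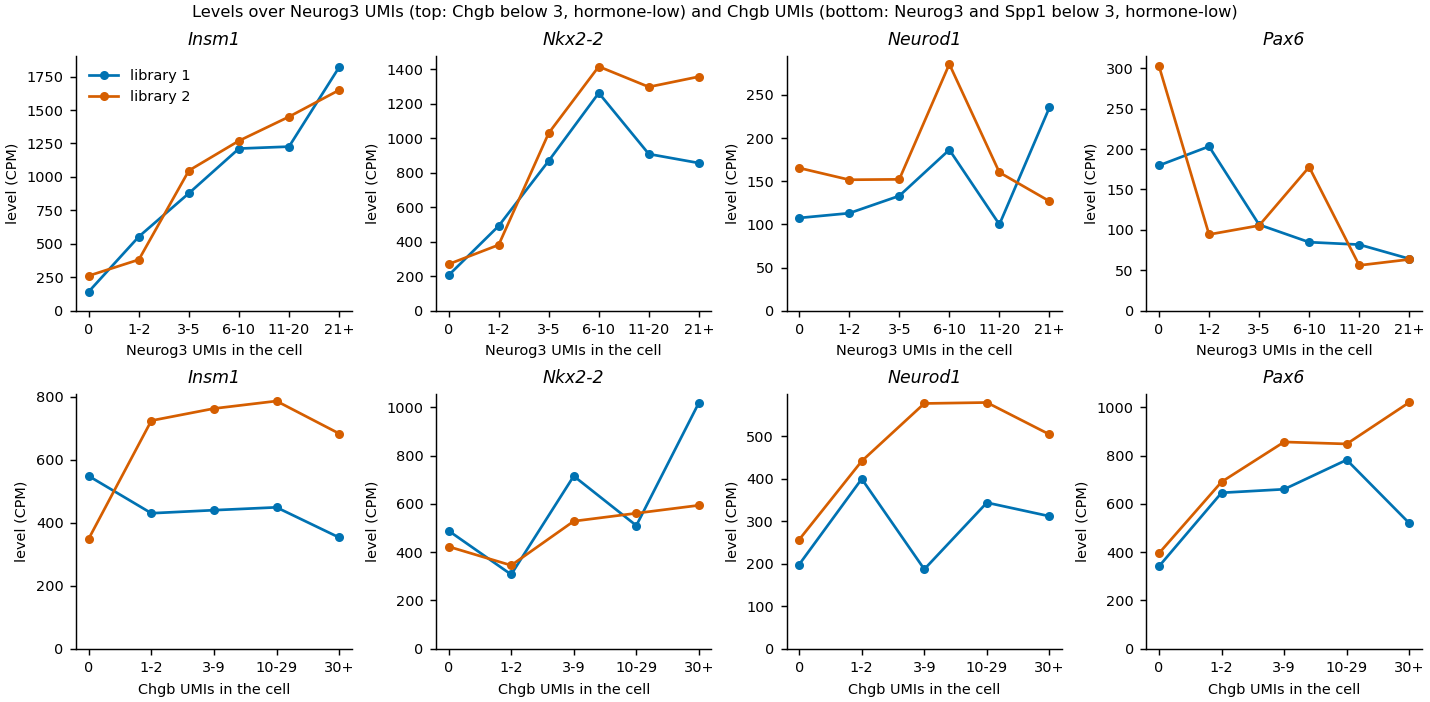
Levels (CPM, linear axes from 0) of Insm1, Nkx2-2, Neurod1 and Pax6 over the number of Neurog3 UMIs in a cell (top) and of Chgb UMIs (bottom), 1 line per library. The top row shows Insm1 higher in each bin of Neurog3, reaching 1820 and 1649 CPM, and Pax6 ending at 64.2 and 63.4 CPM; the bottom row shows Pax6 at 341 and 395 CPM without Chgb and at 646 and 691 CPM with 1 to 2 UMIs.

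Cells that still held Neurog3 and had gained Chgb had less Insm1 and more Neurod1, Pax6 and Runx1t1. Insm1 fell from 1724 and 1952 CPM in Neurog3+ cells to 587 and 947 CPM in double-positive cells (-1.27 ± 0.23 on the log2 scale, edgeR adjusted p = 2.90e-04). Pax6 rose to 416 and 1033 CPM (2.02 ± 0.30, adjusted p = 4.92e-06) and Neurod1 to 563 and 1011 CPM (1.41 ± 0.31, adjusted p = 4.98e-03). These 4 of 8 were called beside 1.34% of all genes (0.431% higher and 0.911% lower).

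Runx1t1 was the weakest of the 4. It stood at 342 and 1054 CPM in double-positive cells, and its library 1 value lay below the 394 CPM of library 2 in Neurog3+ cells (1.32 ± 0.34, edgeR adjusted p = 0.0209). The call was lost without library as a block (adjusted p = 0.0987) and without the filter on low counts (1.01, adjusted p = 0.122). St18, at 318 and 323 CPM, was 1.39 ± 0.44 higher (adjusted p = 0.0926) and passed with DESeq2 (adjusted p = 0.0453) and with library sizes not scaled (adjusted p = 0.05). Nkx2-2, at 1101 and 1592 CPM, overlapped with Neurog3+ cells (-0.37 ± 0.21, adjusted p = 0.476).

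The double-positive group rests on 10 and 16 cells with 35124 and 42597 UMIs of tested genes. Its epsilon and PP list summed to 5249 and 2191 CPM, against 225 and 847 CPM in Neurog3+ cells. The delta list summed to 73.2 and 1736 CPM, against 1055 and 106 CPM. Cells with these hormones were not taken out of this group, and their part in the differences was not tested. From Neurog3+ to double-positive cells all tested genes had a median of -0.22 on the log2 scale with scaled library sizes and of -0.01 without. The differences are to be read against that median. Without scaling, 58 genes were higher and 30 lower, against 35 and 74 with it, and the 4 calls were kept. Myt1, at 196 and 344 CPM, and Rfx6, with 5 UMIs in all, did not pass (adjusted p = 0.72 and 0.552).

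When Neurog3 was lost, Insm1 and Nkx2-2 were lower, and Pax6 and St18 higher, than in Neurog3+ cells. This comparison, added because the double-positive group is small, called 4 of 8 beside 9.29% of all genes (3.9% higher and 5.39% lower). Insm1 stood at 504 and 853 CPM in Chgb+ cells (-1.46 ± 0.19, edgeR adjusted p = 9.60e-09) and Nkx2-2 at 756 and 624 CPM (-1.32 ± 0.18, adjusted p = 9.40e-08). Pax6 stood at 784 and 1001 CPM (2.34 ± 0.24, adjusted p = 1.25e-11), with differences of 2.45 and 2.23 in the 2 libraries.

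St18 was 1.23 ± 0.33 higher (edgeR adjusted p = 8.09e-03), at 321 and 249 CPM, by 2.06 with library 1 alone and 0.58 with library 2 alone. Neurod1 was at 338 and 641 CPM (0.71 ± 0.26, adjusted p = 0.0738), and passed in 3 of the alternatives, among them library sizes without scaling (adjusted p = 0.0347). Rfx6, at 159 and 165 CPM, had its highest level of all groups in Chgb+ cells, yet was not separated from Neurog3+ cells (0.43 ± 0.37, 95% interval -0.29 to 1.14). Myt1, at 79.4 and 175 CPM, and Runx1t1, at 287 and 407 CPM, overlapped with Neurog3+ cells.

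Between double-positive and Chgb+ cells 1 of 8 was called, beside 0.542% of all genes (0.394% higher and 0.148% lower). It was Nkx2-2, down by 0.95 ± 0.22 on the log2 scale (edgeR adjusted p = 0.0127), by 0.51 with library 1 alone and 1.28 with library 2 alone. The call was lost without library as a block (-0.97, adjusted p = 0.113) and without the filter on low counts (-0.66, adjusted p = 0.223). Neurod1, Myt1 and Runx1t1 had lower means in Chgb+ cells, by 0.70, 1.09 and 0.99, and did not pass (adjusted p = 0.346, 0.339 and 0.178).

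**Figure D3:**
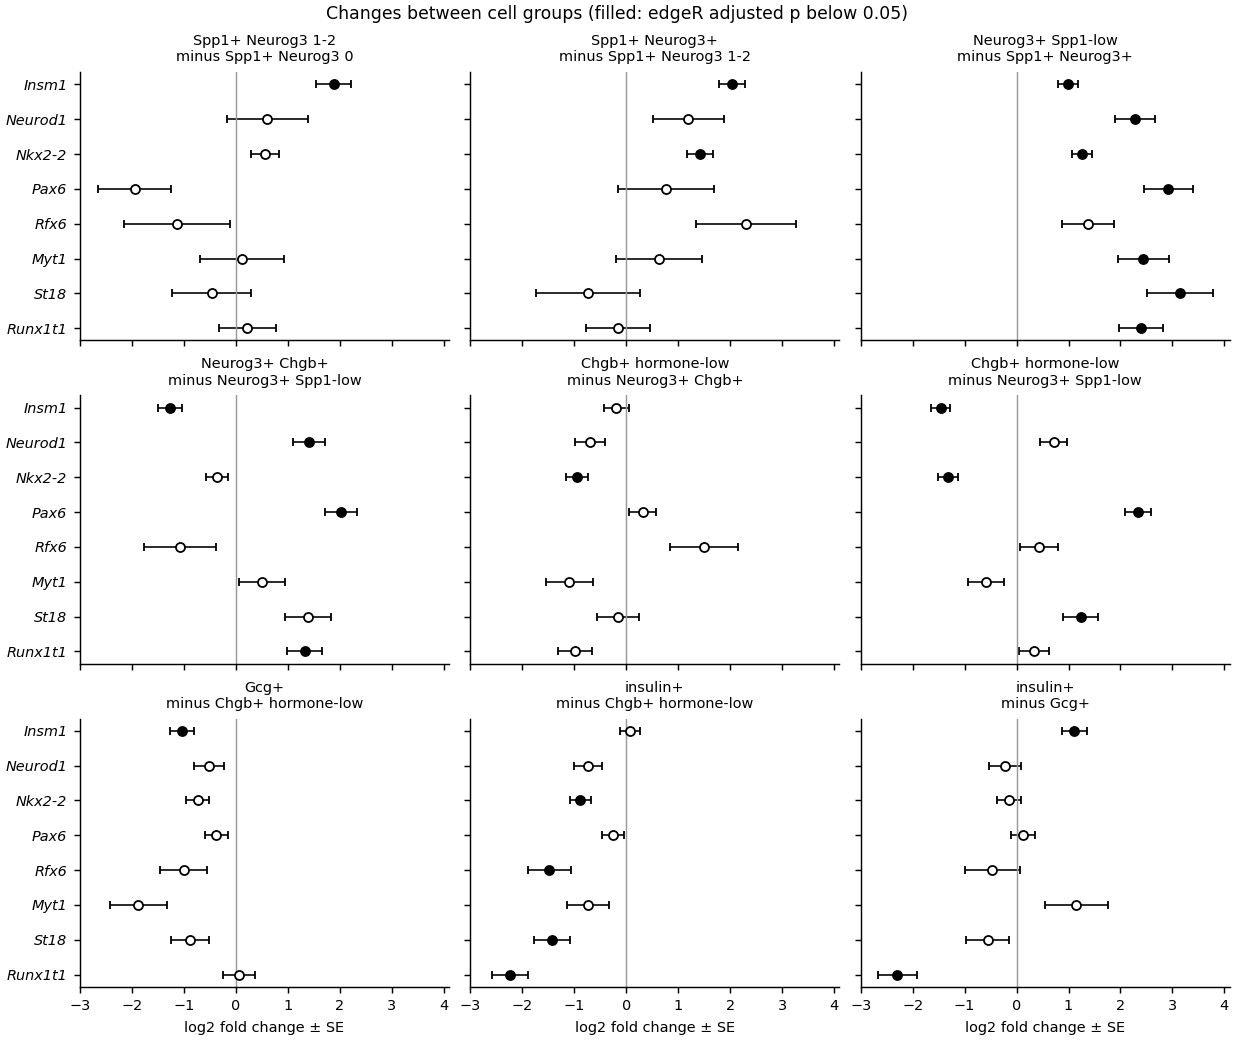
Log2 fold change with its SE (x axis) of each of the 8 genes in 9 comparisons of cell groups, with filled points where the edgeR adjusted p is below 0.05. Filled points are 26 of 72; 7 of the 8 genes are higher in Neurog3+ than in Spp1+ Neurog3+ cells, and insulin+ cells have 4 genes lower than Chgb+ cells.

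The hormone cells differed from each other in Insm1 and Runx1t1. Gcg+ cells, which express the alpha cell hormone, had 246 and 405 CPM of Insm1, below both values of Chgb+ cells (-1.04 ± 0.23, edgeR adjusted p = 6.43e-03). Neurod1, Nkx2-2, Rfx6, Myt1 and St18 also lay below both values of Chgb+ cells and did not pass. Insm1 was thus the 1 of 8 called, beside 0.935% of all genes (0.529% higher and 0.406% lower). The call was lost with DESeq2 (adjusted p = 0.116), with lower marker thresholds (-0.65, adjusted p = 0.358) and without library as a block (adjusted p = 0.115).

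Insulin+ cells had 754 and 665 CPM of Insm1, 1.11 ± 0.24 above Gcg+ cells (edgeR adjusted p = 1.31e-03) and within the range of Chgb+ cells. The difference was 1.63 with library 1 alone and 0.72 with library 2 alone, and was not called with lower thresholds (0.76, adjusted p = 0.0941) or thinned cells (0.84, adjusted p = 0.124). Runx1t1 showed the opposite order. It was at 318 and 405 CPM in Gcg+ cells and at 74.7 and 77.4 CPM in insulin+ cells (-2.29 ± 0.38, adjusted p = 1.55e-05), by 2.06 and 2.36 in the single libraries. These 2 of 8 were called beside 2.89% of all genes (1.74% higher and 1.16% lower).

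Against Chgb+ cells, insulin+ cells had 4 of 8 genes lower, beside 2.46% of all genes called (1.77% higher and 0.689% lower). Runx1t1 fell the most, from 287 and 407 CPM (-2.23 ± 0.35, edgeR adjusted p = 4.78e-06). St18 fell to 74.7 and 130 CPM (-1.44 ± 0.35, adjusted p = 7.61e-03), Nkx2-2 to 285 and 457 CPM (-0.89 ± 0.21, adjusted p = 4.31e-03) and Rfx6 to 34.0 and 77.4 CPM (-1.48 ± 0.42, adjusted p = 0.0326). The falls of St18, Nkx2-2 and Rfx6 were 2.10, 1.41 and 2.20 with library 1 alone and 0.94, 0.45 and 1.09 with library 2 alone. With DESeq2 those 3 did not pass (adjusted p = 0.0721, 0.051 and 0.257). Nkx2-2 was also lost without library as a block (0.078) and with thinning (0.198), and Rfx6 with higher thresholds (0.0715), lower thresholds (0.0619), no block (0.0876) and thinning (0.39), all adjusted p.

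Pax6 did not pass in either hormone group against Chgb+ cells. It stood at 553 and 834 CPM in Gcg+ cells and 666 and 840 CPM in insulin+ cells and overlapped with Chgb+ cells in both. The interval of the difference was -0.82 to 0.07 for Gcg+ and -0.67 to 0.17 for insulin+ cells on the log2 scale. Neurod1 was at 338 and 335 CPM in Gcg+ cells and at 224 and 355 CPM in insulin+ cells, and neither difference from Chgb+ cells passed (adjusted p = 0.642 and 0.182 with edgeR); with thinned cells the fall in insulin+ cells did (-1.22, adjusted p = 0.0132). Myt1 had 8 UMIs in all Gcg+ cells and 35 in insulin+ cells.

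Runx1t1 was lower in each higher bin of insulin UMIs. Among cells of library 2 with Chgb and without Neurog3 or glucagon it stood at 374, 127, 89.0, 52.3 and 46.7 CPM with 0 to 4, 5 to 19, 20 to 49, 50 to 149 and 150 or more insulin UMIs. In library 1 it stood at 267 CPM with 0 to 4 UMIs, and at 49.0 and 38.1 CPM in the 2 highest bins, where the middle bins held under 10 cells. Rfx6 also decreased at every step in library 2, from 149 to 37.4 CPM. In macrophages Runx1t1 stood at 138 and 94.8 CPM, above its level in insulin+ cells, and whether macrophages express it was not tested.

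Beyond the cells named by Gcg and insulin, 13 cells of library 2 had 20 or more UMIs of Ghrl, the epsilon cell hormone, and 24 had 20 or more of Sst. The Ghrl cells held 887 CPM of Pax6, 476 of Runx1t1 and 259 of Insm1. The Sst cells held 606 CPM of Insm1, 382 of Pax6, 330 of Runx1t1 and 105 of Nkx2-2. Library 1 had 4 and 2 such cells, so these are values of 1 library with no test.

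In single cells, shares of cells with a UMI were compared after each cell with at least 2000 UMIs was thinned to 2000. Shallower cells were left out of all thinned shares. This kept 72 of 80 and 112 of 156 trunk cells without Neurog3, and 67 of 82 and 85 of 114 Neurog3+ cells. Of double-positive cells 10 of 10 and 12 of 16 were kept, and of Chgb+ cells 81 of 95 and 114 of 149. Insm1 was detected in 77.6% of Neurog3+ cells in library 1 (95% exact binomial interval 65.8 to 86.9) and 85.9% in library 2 (76.6 to 92.5). In trunk cells without Neurog3 it was detected in 6.94% and 8.93%, and in macrophages in 0 of 6 cells (upper limit 45.9%) and 8.89% of 45. The trunk share was thus near that of macrophages in library 2, while library 1 had too few macrophages to judge. By level, Insm1 stood at 46.0 and 89.6 CPM in macrophages and at 73.8 and 25.1 CPM in acinar cells. Trunk cells without Neurog3 had 52.7 and 69.4 CPM. Before thinning the shares in Neurog3+ cells were 80.5% and 86.0%, and in macrophages 12.5% and 14.1% at median depths of 2762 and 2894 UMIs. These intervals cover counting error only.

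Pax6 was found in 16.4% and 23.5% of Neurog3+ cells and in 61.7% and 76.3% of Chgb+ cells, against 0% and 2.22% of macrophages. Before thinning these shares were 18.3% and 24.6% in Neurog3+ cells, and 75.8% and 85.2% in Chgb+ cells. Runx1t1 was found in 28.0% and 46.2% of Gcg+ cells and in 10.8% and 11.2% of insulin+ cells, while macrophages had 16.7% and 13.3%, so its detection in insulin+ cells was no higher than in macrophages. Before thinning the shares of Runx1t1 were 37.9% and 43.4% in Gcg+ cells, 22.5% and 19.2% in insulin+ cells and 25.0% and 23.4% in macrophages.

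The number of the 8 genes found in 1 cell was highest in double-positive cells. Thinned trunk cells without Neurog3 held a mean of 0.472 and 0.634 of the 8 genes in libraries 1 and 2, Spp1+ Neurog3+ cells 1.5 and 1.59, and Neurog3+ cells 2.57 and 3.39. Double-positive cells held 4.0 and 4.25, Chgb+ cells 2.88 and 3.66, Gcg+ cells 2.28 and 2.59, and insulin+ cells 2.16 and 2.45. Macrophages held 0.333 and 0.356. Cells with 4 or more of the 8 genes made up 17.9% and 47.1% of Neurog3+ cells and 8.11% and 21.2% of insulin+ cells. A single Neurog3+ cell of library 2 held all 8.

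**Figure D4:**
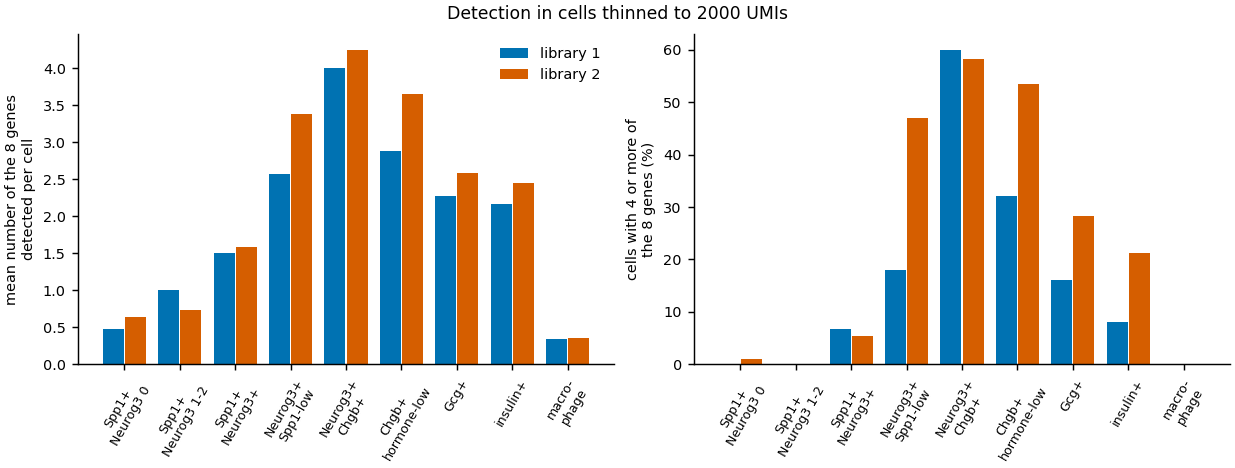
Mean number of the 8 genes detected per cell (left) and share of cells with 4 or more of them (right, in percent), by cell group and library. Cells were thinned to 2000 UMIs, and those with fewer were left out. The mean goes from 0.472 and 0.634 in trunk cells without Neurog3 to 4.0 and 4.25 in double-positive cells, and is 2.16 and 2.45 in insulin+ cells.

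Within Neurog3+ cells the joint detection of each pair of genes was counted. In both libraries, 11 of 28 pairs had the second gene in a larger share of cells with the first than of cells without it. For 8 pairs that share was smaller in both libraries. The numbers expected for unlinked genes were not computed, so these counts do not by themselves show a link. The pairs given below are among those with the larger gaps. A smaller share does not mean that the genes were mostly found apart. Neurod1 was detected in 19.2% of Neurog3+ cells with Insm1 and 40.0% of those without it in library 1, and in 37.0% and 58.3% in library 2. Pax6 was likewise detected in 11.5% of cells with Insm1 and 33.3% without it, and in 20.5% and 41.7% in library 2. The cells without Insm1 numbered 15 and 12.

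Pax6 was detected in a larger share of the Neurog3+ cells with Neurod1 than of those without it. It was detected in 31.2% of those with Neurod1 and 11.8% of those without it in library 1, and in 44.1% and 9.8% in library 2. Runx1t1 was detected in 31.2% and 17.6%, a gap of 13.6 percentage points, and in library 2 the gap was 28.4. Thinned to 1000 UMIs, the gap of Neurod1 between cells with and without Insm1 shrank from -20.8 and -21.3 to -7.16 and -4.49 percentage points, and that of Pax6 between cells with and without Neurod1 went from 19.5 and 34.3 to 20.5 and 5.56. Cells of 1 library are not replicates, so the gaps carry no test. In Chgb+ cells the gap was positive in both libraries for 11 of 28 pairs and negative for 3, but for 7 and 7 at 1000 UMIs.

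Some relatives of the 8 genes followed a course of their own. Of 28 listed paralogs 6 had enough counts to be tested. Of these Cbfa2t3, Cbfa2t2, Neurod2 and Pax4 were highest in Neurog3+ cells and lower, or nearly gone, in Chgb+ cells. Cbfa2t3, a co-repressor of the same family as Runx1t1, was at 49.0 and 152 CPM in low-Neurog3 trunk cells and already at 430 and 624 CPM in Spp1+ Neurog3+ cells (2.29 ± 0.36, edgeR adjusted p = 4.24e-05). It reached 732 and 1011 CPM in Neurog3+ cells and was at 82.9 and 121 CPM in Chgb+ cells (-3.08 ± 0.28, adjusted p = 9.38e-14). Over the same step Runx1t1 went from 166 and 394 to 287 and 407 CPM.

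Neurod2, the paralog of Neurod1, was at 328 and 247 CPM in Neurog3+ cells and at 13.8 and 17.3 CPM in Chgb+ cells (-4.09 ± 0.48, edgeR adjusted p = 6.13e-10). Pax4, a paralog of Pax6 that favours the beta and delta fates, was at 470 and 424 CPM in Neurog3+ cells and at 110 and 88.8 CPM in Chgb+ cells (-2.18 ± 0.36, adjusted p = 3.76e-06), where Pax6 was near its highest. Of the 6 paralogs tested 4 were lower in Chgb+ than in Neurog3+ cells. Among them was Cbfa2t2, a further paralog of Runx1t1, at 257 and 328 CPM in Neurog3+ cells. In Chgb+ cells it stood at 131 and 111 CPM (-1.28 ± 0.32, edgeR adjusted p = 2.90e-03).

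**Figure D5:**
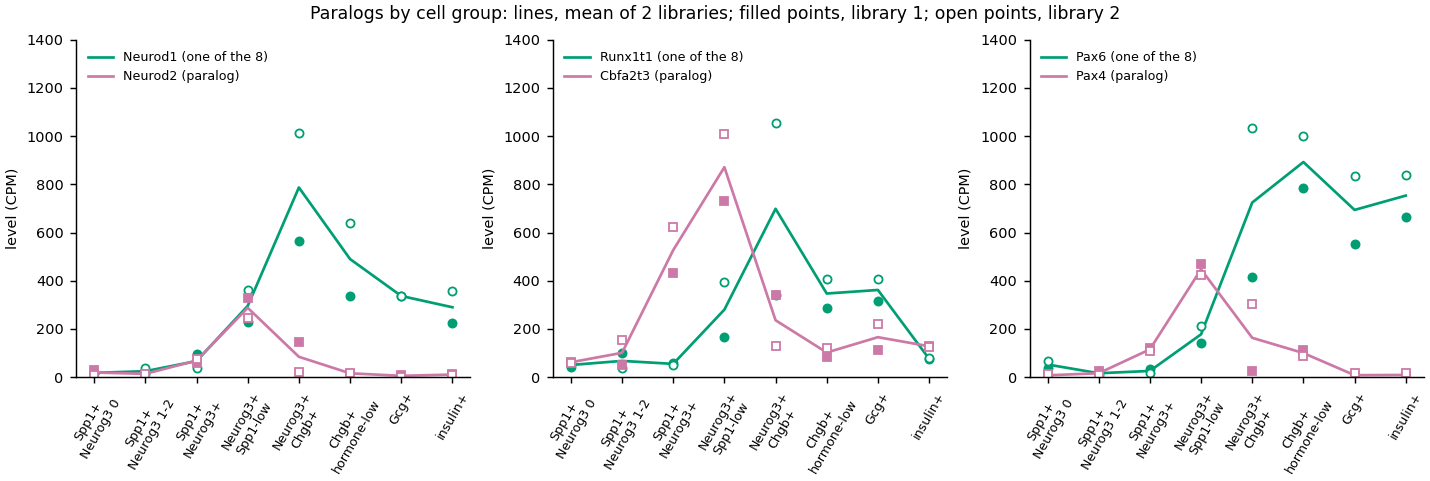
Levels (CPM, linear axes from 0) of Neurod1, Runx1t1 and Pax6 and of 1 paralog each, Neurod2, Cbfa2t3 and Pax4, across the 8 groups. Lines are means of 2 libraries, filled points library 1 and open points library 2. The paralogs are highest in Neurog3+ cells, at 287, 871 and 447 CPM, and the 3 others in double-positive or Chgb+ cells.

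The other genes of the pathway were followed as lists, which are described by counts only. Of 20 tested partners and targets of the bHLH and Notch pathways, 3 rose and 6 fell from Spp1+ Neurog3+ to Neurog3+ cells, with a median of -1.04 on the log2 scale. Hes1, the Notch effector that represses Neurog3, fell from 213 to 22.6 CPM (means of 2 libraries; -3.19 ± 0.50, edgeR adjusted p = 6.77e-06). Hes6, a bHLH factor induced by Neurog3, rose from 285 to 634 CPM (1.12 ± 0.27, adjusted p = 6.92e-03). In double-positive cells 5 of the 20 were lower.

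Of 33 tested other endocrine transcription factors, 7 rose in Neurog3+ cells, the step at which 7 of the 8 genes rose. Isl1, which marks postmitotic endocrine cells, went from 30.9 to 227 CPM (2.91 ± 0.46, edgeR adjusted p = 6.80e-06). In double-positive cells Fev, a serotonergic factor of endocrine precursors, rose from 77.9 to 1103 CPM (3.77 ± 0.38, adjusted p = 1.72e-11) and Sox4 fell from 1879 to 383 CPM (-2.28 ± 0.28, adjusted p = 9.88e-09). Between insulin+ and Gcg+ cells 4 were higher and 8 lower in insulin+ cells, with Nkx6-1 at 775 against 85.3 CPM (3.16 ± 0.32, adjusted p = 1.51e-11).

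Some genes of the secretory and glucose-sensing machinery were higher at each step from the Spp1+ Neurog3+ stage to Chgb+ cells. In low-Neurog3 trunk cells, where Insm1 was the only gene called, their median was -0.36. Of 34 tested, 2 were higher in Spp1+ Neurog3+ cells, 12 in Neurog3+ cells, 8 in double-positive cells and 7 in Chgb+ cells, each against the group before. Their median difference was 1.25 in Neurog3+ cells and 0.82 from double-positive to Chgb+ cells, where the median of all genes was 0.20. Chga, chromogranin A, went from 55.9 to 361 CPM in Neurog3+ cells (2.66 ± 0.37, edgeR adjusted p = 4.04e-07) and to 1279 CPM in double-positive cells (1.87 ± 0.27, adjusted p = 1.25e-06). Cpe, which trims hormone precursors, rose from 158 to 813 CPM in double-positive cells (2.33 ± 0.30, adjusted p = 1.05e-07).

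The genes whose pattern lay nearest to each of the 8 were found over the 16 sums of 8 groups and 2 libraries, by Pearson's r of log2(CPM + 10) among 7758 genes. All sums come from the same 2 libraries, so r is a description only. Nearest to Insm1 were Kdm7a (r = 0.957), Mfng (0.925) and Tox3 (0.912), and to Nkx2-2 Gse1 (0.942), Inppl1 (0.914) and Rap1gap2 (0.911). Mfng encodes a glycosyltransferase that modifies Notch receptors. Nearest to Neurod1 were Baiap3 (0.963), Ctsf (0.955) and Aplp1 (0.937), and to Pax6 Gars (0.954), Dynlt1c (0.95) and Cpe (0.948).

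Myt1 was nearest to the calcium channel genes Cacna1a (r = 0.912) and Cacna1h (0.911), and then to Clta (0.878). St18 was nearest to Baiap3 (0.921), Chga (0.919) and Zfp174 (0.918), Runx1t1 to Pou3f4 (0.887), Ctsf (0.881) and Mast3 (0.853), and Rfx6 to Ube2q1 (0.887), Kcnb2 (0.857) and Tpst2 (0.844). Pou3f4 is a factor of alpha cells. Among the 8 themselves r over the 16 sums was highest for Pax6 with St18 (0.90) and Neurod1 with St18 (0.892), and lowest for Nkx2-2 with Pax6 (0.335) and Insm1 with Pax6 (0.348).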

How the data were processed

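Single cells from 2 libraries of sorted mouse pancreas were analysed from unnormalised UMI counts per gene, 1 deposited table per library, built by the authors on GRCm38 per the submitters' processing notes. What aligner, counter and annotation were used, and whether counting was stranded, is not given in the sources used here. Of the columns, 0 were left out. Per the labels' protocols, RNA was amplified linearly as in CEL-Seq, which primes at the 3' end. Levels of different genes are therefore not strictly comparable, and where printed side by side they show how many counts each result rests on.

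Barcodes with at least 1000 UMIs, 500 genes and at most 20% mitochondrial UMIs were kept (528 and 1081), and Scrublet doublets in scanpy 1.11.5 removed (13, 2.46%, and 11, 1.02%). Groups were formed in turn: macrophages (5 UMIs of 10 genes), acinar (20 UMIs of 11 genes), insulin+, Gcg+, then Neurog3, Chgb and Spp1; 103 and 209 cells fell in no group. UMIs were summed per library and group (16 sums) and tested in edgeR 4.0.16 (quasi-likelihood, TMM, low-count filter, library as block because both groups of a comparison come from the same libraries, 7 residual degrees of freedom), adjusting over 8125 genes, called at 0.05. Group-defining genes were not tested. Test scripts were tested on simulated data. Levels are TMM-scaled CPM (plain CPM for macrophages, bins and hormone subsets). Single-library differences use log2(CPM + 1), with no test.

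Named genes are the 8 genes, the 3 nearest by r to each (genes of at least 20 CPM on average), and up to 4 called genes per list and comparison with the lowest adjusted p. The genes and lists were chosen with earlier results of these data known. Alternatives were DESeq2 1.42.0, other scalings, thresholds, thinning, doublets kept, no filter, no block and single libraries. The thinned fit formed the groups anew from thinned UMIs, while thinned detection shares kept the original groups.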

Additional observations from a re-analysis of the deposited data

Results flagged for a closer look

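In library 1, 103 of 515 cells, and in library 2, 209 of 1070 cells, fell in no group of the comparisons, because they held too few UMIs of Spp1, Neurog3, Chgb, Gcg and insulin. Of the 8 genes, 7 were nevertheless above their macrophage level there. The means of the 2 libraries were 493 CPM for Insm1, 449 CPM for Pax6, 423 CPM for Nkx2-2, 290 CPM for Runx1t1, 279 CPM for Neurod1, 166 CPM for St18 and 95.7 CPM for Myt1. In macrophages the same genes stood at 67.8, 44.8, 67.1, 116, 13.2, 7.9 and 5.27 CPM. These cells were shallower, with medians of 2325 and 2493 UMIs, and their summed epsilon and PP markers reached 4100 and 6217 CPM, with neural, mesenchymal, endothelial and erythroid markers at 759 and 2135 CPM. The part of either list, or of depth, in these levels was not tested.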

How the results depend on the processing

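Of 26 called differences, 26 kept their direction and call with RLE size factors, with library sizes not scaled, with doublets kept and without Chgb+ cells of other hormones (an alternative chosen after seeing the data), 24 without the low-count filter, 22 with DESeq2, 22 with lower thresholds and 20 with no replicate block. With higher thresholds 19 of 21 were kept, with thinning 15 of 21, and with the double-positive sums left out 21 of 21 (chosen after seeing the data). Double-positive cells were too few for higher thresholds and thinning, so those comparisons were not run. A single library leaves no residual degrees of freedom and gives values only. Of the 26, 7 moved by more than the spread with library 1 alone and 1 with library 2 alone. That spread is the SD of the same 2 single-library differences, so these counts do not measure stability. No difference reversed.

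The pairing is by library. With no replicate block the number of the 8 genes called was 0 instead of 1 in low-Neurog3 trunk cells, 0 instead of 1 from double-positive to Chgb+ cells, 0 instead of 1 for Gcg+ and 2 instead of 4 for insulin+ against Chgb+ cells. With lower thresholds it was 0 in low-Neurog3 trunk cells, 0 for Gcg+ against Chgb+ cells and 1 instead of 2 for insulin+ against Gcg+ cells; with higher thresholds, 1 instead of 2 in Spp1+ Neurog3+ cells; with thinning, 4 instead of 7 in Neurog3+ cells and 1 for insulin+ against Gcg+ cells; with DESeq2, 0 for Gcg+ and 1 for insulin+ against Chgb+ cells. Without the low-count filter it was 0 from double-positive to Chgb+ cells and 2 for Gcg+ cells, and with library sizes not scaled 2 for Gcg+ cells. At 1000 UMIs, 7 instead of 11 pairs in Chgb+ cells had a positive gap in both libraries. The gap is a gene's share in cells with the other gene minus its share in cells without it.

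Over all genes, DESeq2 called 77 higher and 94 lower in Neurog3+ cells (131 and 151 with edgeR), 83 and 28 for insulin+ against Chgb+ cells (144 and 56), 84 and 63 for insulin+ against Gcg+ cells (141 and 94), 26 and 14 for Gcg+ cells (43 and 33) and 17 and 2 in Spp1+ Neurog3+ cells (29 and 5). With no replicate block the numbers were 9 and 1 in Spp1+ Neurog3+, 21 and 31 in double-positive (35 and 74), 16 and 7 from double-positive to Chgb+ (32 and 12) and 95 and 31 in insulin+ against Chgb+ cells. Thinning gave 45 and 37 in Neurog3+ cells, 17 and 5 in Spp1+ Neurog3+ cells, 77 and 45 for insulin+ against Chgb+ and 84 and 57 against Gcg+ cells. No filter gave 21 and 253 in double-positive cells and 83 and 7 from these to Chgb+ cells, where lower thresholds gave 9 and 13. With sizes not scaled the split was 23 and 23 from double-positive to Chgb+, 41 and 49 for Gcg+ and 109 and 94 for insulin+ against Chgb+ cells; RLE gave 44 and 43 in double-positive and 19 and 23 from these to Chgb+ cells. In low-Neurog3 trunk cells 4 genes were called with higher thresholds and 1 higher and 1 lower without the filter. Causes were not tested.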
